A study of Mus musculus with 6 samples.

Results

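Peaks from a Quaking pull-down in mouse muscle precursor cells were examined over 7 genes that encode regulators of tissue-specific splicing. They are Mbnl1 (ENSMUSG00000027763), Mbnl2 (ENSMUSG00000022139), Celf1 (ENSMUSG00000005506), Ptbp1 (ENSMUSG00000006498), Ptbp2 (ENSMUSG00000028134), Ptbp3 (ENSMUSG00000028382) and Rbfox2 (ENSMUSG00000033565). All peaks listed under their 7 Ensembl gene IDs were taken from an anti-PanQk and an anti-HA control peak list. They came to 53 of the 22488 anti-PanQk peaks and 14 of the 8496 control peaks. Peaks were found for 6 of the 7 genes with anti-PanQk and for 5 of the 7 in the control. Mbnl1 had none in the anti-PanQk list, and Ptbp2 and Ptbp3 had none in the control list. The lists pair no ID with a symbol, so the symbols are those assigned to the IDs when the genes were chosen. For 7 of 7 genes the chromosome of the symbol in RefSeq (GRCm38.p6) was that of the peaks, and for 5 of 5 with a known strand the strand was too.

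Both lists came from proliferating C2C12 myoblasts, an immortalised mouse line that fuses into myotubes when serum is lowered, irradiated with ultraviolet light at 400 mJ. They were made by iCLIP, in which a protein crosslinked to RNA is pulled down with an antibody and the attached RNA fragments are sequenced. One library used a mouse antibody that recognises the Quaking (Qk) proteins together, and the other a mouse antibody against the HA tag, which gave the background. The series also holds 2 anti-PanQk libraries from myotubes after 72 h of differentiation, 1 anti-Qk6 and 1 anti-Qk7 library, which were not analysed here. With 1 library per antibody there was no replicate, so no difference between the lists was tested and intervals cover counting error only. The listed intervals hold 200878 reads for anti-PanQk and 150162 for the control, each interval counted once. Library depth is unknown, and read numbers are given as listed, unscaled.

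Quaking is a STAR-family RNA-binding protein that acts on splicing, RNA stability and translation, and is known for its part in muscle and glial splicing. The 7 genes encode other splicing regulators of the same kind of program. Muscleblind proteins (Mbnl) promote adult splicing patterns in muscle, and CELF1, which also binds GU-rich elements to destabilise mRNA, opposes them at many exons. Polypyrimidine tract-binding proteins (Ptbp) mostly repress exons. PTBP1 is the form of most dividing cells, PTBP2 is known from neurons and developing muscle, and PTBP3 was described in blood cells. RBFOX2 binds GCAUG elements and acts on many exons that change during muscle differentiation.

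The peaks were unevenly shared among the genes. Mbnl2 had 15 anti-PanQk peaks, Rbfox2 14, Ptbp3 11, Ptbp1 6, Celf1 4 and Ptbp2 3. The first 3 of these genes held 40 of the 53 peaks (75.5%). Over all IDs with any anti-PanQk peak the median was 2 (quartiles 1 and 3), and only 2.23% of the 7135 IDs had as many as Mbnl2, 2.51% as many as Rbfox2 and 3.81% as many as Ptbp3. Ptbp1 was matched or passed by 12.7% of IDs, Celf1 by 23.0% and Ptbp2 by 34.6%. Ranked by reads in the peaks, the genes stood lower. As many reads or more were found for 3.41% of IDs in the case of Mbnl2, 8.51% for Rbfox2 and 12.2% for Ptbp3. For Ptbp1, Celf1 and Ptbp2 it was 20.9%, 31.5% and 42.7%. Neither peaks nor reads were scaled by transcript length. The order in the control was different. Mbnl1 led there with 6 peaks, followed by Rbfox2 with 3, Mbnl2 and Celf1 with 2 each and Ptbp1 with 1.

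Mbnl2 held the most anti-PanQk reads. Its peaks held 113 reads, which is 44.0% of the 257 reads in the anti-PanQk peaks of the 7 genes. Part of this lay at a control site. Its neighbouring entries of 10, 11, 12 and 10 reads join when peaks within 50 nt are merged. Of these, 1 overlapped a control peak of 18 reads. Rbfox2 held 59 reads, Ptbp3 39, Ptbp1 22, Celf1 14 and Ptbp2 10. In the control, Mbnl1 held 68 of 151 reads (45.0%), Mbnl2 24, Celf1 21, and Ptbp1 and Rbfox2 19 each. In these unscaled reads Celf1 was the one gene with peaks in both lists that had fewer with anti-PanQk than in the control, although it had more anti-PanQk peaks. Ptbp1 was close, with 22 and 19. The anti-PanQk list holds more reads in all (200878 against 150162), so singling out Celf1 depends on not scaling.

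**Figure D1:**
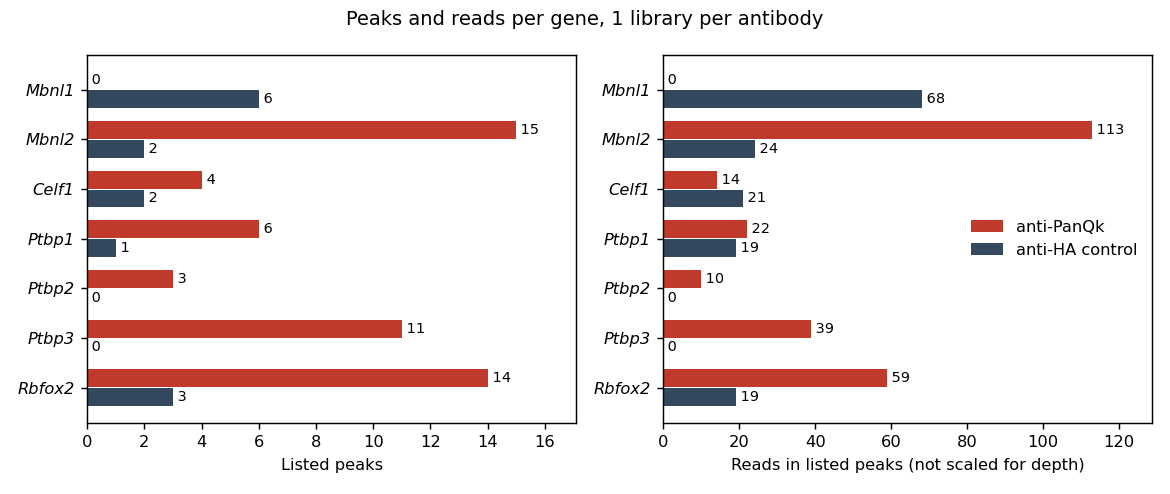
Listed peaks (left panel, number of peaks) and reads in those peaks (right, number of reads, not scaled for depth) for each gene, with anti-PanQk and anti-HA control bars from 1 library each. Mbnl2, Rbfox2 and Ptbp3 carry 15, 14 and 11 anti-PanQk peaks, while Mbnl1 has 6 control peaks and no anti-PanQk peak.

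Nearly all anti-PanQk peaks of these genes lay where the control had no peak. Whether a listed peak is a Quaking contact was not tested. An anti-PanQk peak is called control-free when no control peak shares 1 nt with it on the same strand. Of the 53 peaks, 52 were control-free (98.1%, exact Clopper-Pearson 95% interval 89.9 to 99.95), against 86.0% of all anti-PanQk peaks. The peaks of 1 gene are not independent, which the interval does not cover. The single overlapped peak was in Mbnl2. Seen from the control, 1 of its 14 peaks in these genes (7.14%, interval 0.181 to 33.9) was met by an anti-PanQk peak. Over all control peaks it was 29.5%, which lies within that interval. Of the 14, 6 belonged to Mbnl1, which had no anti-PanQk peak to meet them. When a control peak within 100 nt also counted as shared, 48 of the 53 remained free, against 78.2% over the list. The other 5 were 3 peaks in Mbnl2, 1 in Ptbp1 and 1 in Rbfox2.

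Most of the peaks were weak, and weak peaks are seldom overlapped anywhere in the list. The smallest read number that either list holds is 3, and 33 of the 53 peaks (62.3%) had exactly that, against 43.6% of all anti-PanQk peaks. The median was 3 reads (quartiles 3 and 4), against 4 (quartiles 3 and 7) over the list. Over the whole list 97.3% of peaks with 3 reads were control-free, 92.5% with 4 or 5, 80.6% with 6 to 9 and 52.1% with 10 or more. The list's shares, taken in finer read classes than those above, were also weighted by the read numbers found in these genes. This gave 91.0%, which lies within the interval of 89.9 to 99.95 around the 98.1% of these genes. In the strongest class, 5 of the 6 peaks with 10 or more reads were control-free. Only 1 of the 6 lay outside Mbnl2. Those in Mbnl2, except its strongest, join the overlapped peak when peaks within 50 nt are merged, so they are not separate observations. Widths ranged from 6 to 157 nt. On the plus strand their median was 41 nt, against 15 nt over the list, and on the minus strand 32 nt, against 36 nt.

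Peak width went with strand, in these genes and in both lists. On the plus strand 9 of the 25 anti-PanQk peaks of these genes (36%) were at most 12 nt wide, with 5 in Mbnl2, 2 in Celf1 and 2 in Ptbp1. On the minus strand it was 0 of the 28 in Ptbp2, Ptbp3 and Rbfox2. The 9 narrow peaks were 6 to 10 nt wide, and 8 of them had 3 reads. Over the whole anti-PanQk list 48.9% of 11510 plus-strand peaks were that narrow, against 9.33% of 10978 minus-strand peaks, and in the control list 54.0% and 20.4%. The limit of 12 nt was chosen after the widths were seen. Widths, and distances of a few nt between peaks, are therefore not compared between the plus-strand and the minus-strand genes. The control-free share was nearly equal on both strands of the list, at 85.5% (plus) and 86.5% (minus).

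**Figure D2:**
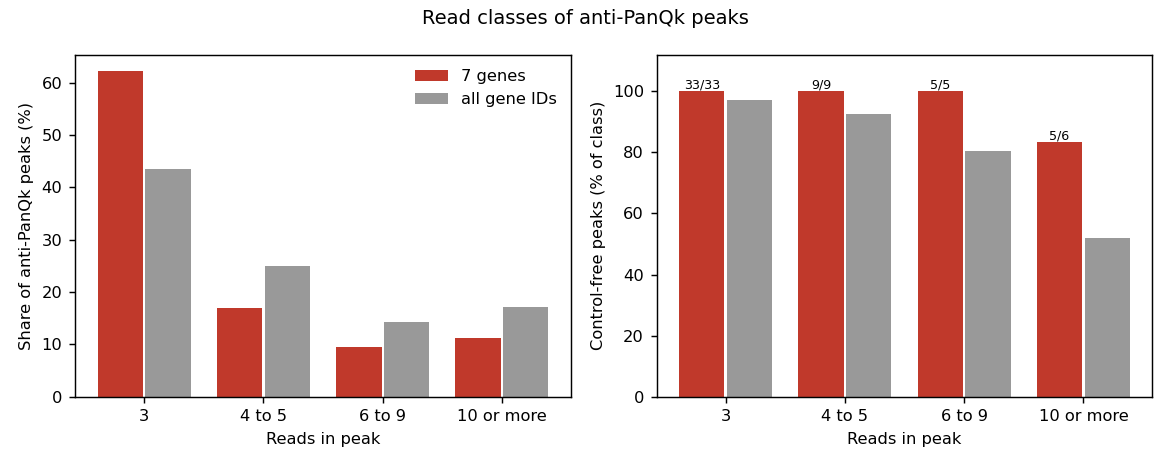
Anti-PanQk peaks by reads in the peak (x axes, read classes). The left panel gives the share of peaks in each class (percent) and the right panel the control-free share of each class (percent), for the 7 genes and for all gene IDs; 33 of the 53 peaks of the 7 genes had 3 reads, all of them control-free.

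Few of the peaks passed a strict limit on the p-value that the authors deposited for each peak. At p at most 1e-06 there were 7 of the 53, against 19.4% of the list, and they belonged to Mbnl2 (5) and Rbfox2 (2). Without Mbnl2, 2 of 38 peaks passed (5.26%). Celf1, Ptbp1, Ptbp2 and Ptbp3 had no peak past this limit. Their listed signal therefore rests on peaks of 3 to 8 reads.

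Mbnl1 and Mbnl2, paralogs that bind the same kind of RNA element, stood at opposite ends in listed anti-PanQk peaks. Mbnl2 had 15 anti-PanQk peaks of 3 to 29 reads and 2 control peaks of 6 and 18 reads. Mbnl1 had no anti-PanQk peak and 6 control peaks of 19, 8, 19, 3, 3 and 16 reads in transcript order. How reads matching both paralogs were treated is not given in the sources used here.

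Peaks of Mbnl2 fell into a dense downstream group and a thin upstream scatter. Coordinates here and below are mm9, 1-based. Its peaks covered a stretch from 120713777 to 120830847 on the plus strand of chromosome 14, 117.1 kb in length. Within the last 2156 nt of it, from 120828692 to 120830847, lay 9 peaks with 94 reads, which is 83.2% of the gene's reads. These 9 had 5, 3, 7, 10, 11, 12, 10, 7 and 29 reads in transcript order, and together they covered 742 nt, or 34.4% of that length. The other 6 lay at least 27.2 kb upstream, spread over 87.7 kb, and had 3 or 4 reads each. The median of the downstream group was 10 reads, and no upstream peak passed 4.

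The strongest peak of Mbnl2 was also the last, at 120830691 to 120830847. It was 157 nt wide, held 29 reads, had a deposited p of 8.36e-33 and lay 612 nt beyond the nearest control peak. As many reads or more were found in 865 of the 22488 anti-PanQk peaks of the whole list (3.85%), and in 194 of the 19333 control-free ones (1.00%). The overlapped peak, at 120830019 to 120830089 with 11 reads, enclosed the strongest control peak of the gene, at 120830036 to 120830078 with 18 reads. It abutted its neighbours of 10 and 12 reads on either side without a gap, and these 2 lay 17 and 11 nt from the control peak. Merging peaks within 50 nt joined these 3 entries and the next one downstream, of 10 reads at 120830210 to 120830284, into 1, and left 12 peaks in Mbnl2 instead of 15. The other control peak of Mbnl2, of 6 reads at 120798083 to 120798094, lay 3364 nt from the nearest anti-PanQk peak.

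**Figure D3:**
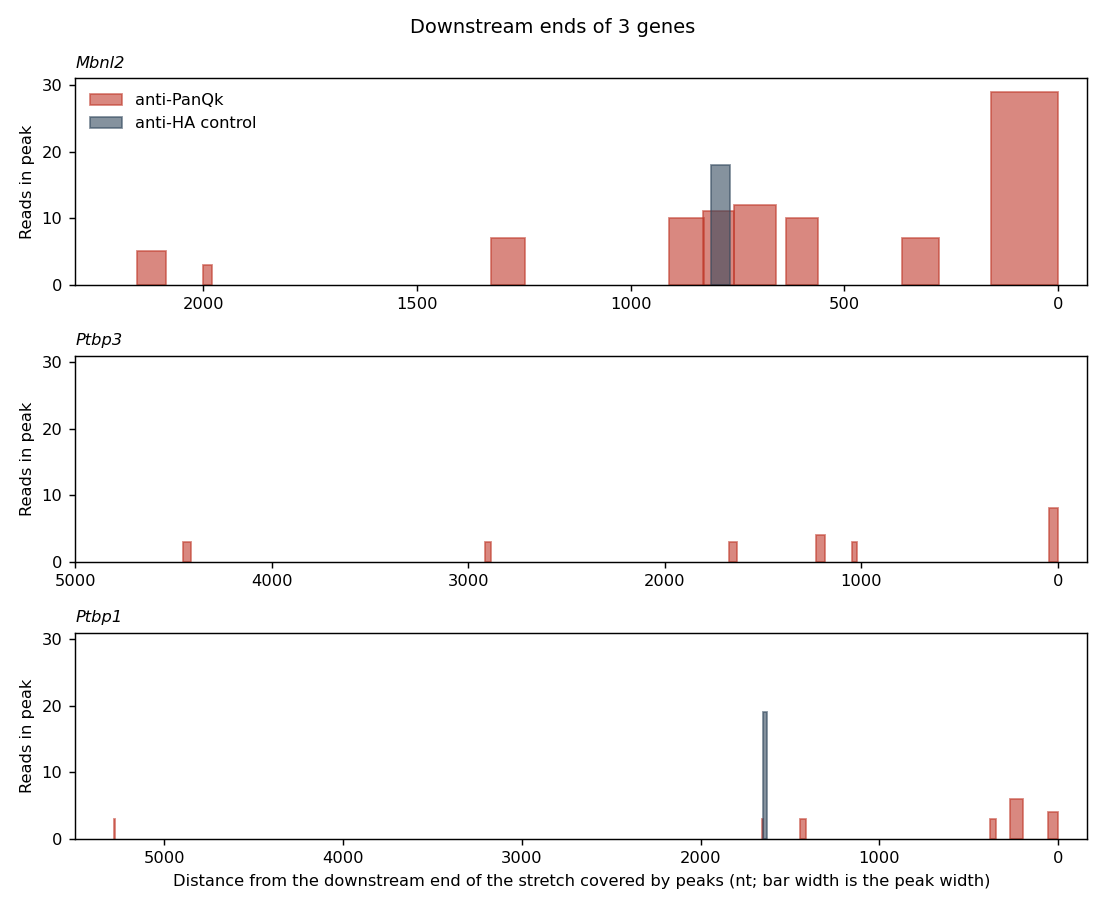
Peaks at the downstream ends of Mbnl2, Ptbp3 and Ptbp1, with distance from the last listed position of the gene on the x axes (nt, each panel with its own scale) and reads in the peak on the y axes; bar width is the width of the peak. In Mbnl2, 9 anti-PanQk peaks surround 1 control peak of 18 reads and end in a peak of 29 reads.

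Over the 4 values per gene ID that the lists give (peaks and reads in each list, on a log2(1 + value) scale), 3 other IDs were nearest to Mbnl2 by Euclidean distance over these 2 libraries. ENSMUSG00000020859 had 13 anti-PanQk and 2 control peaks with 103 and 26 reads (distance 0.26). ENSMUSG00000042331 had 17 and 2 with 100 and 26 reads (0.27), and ENSMUSG00000000420 had 12 and 2 with 105 and 27 reads (0.36). Their strongest peaks held 27, 24 and 32 reads, near the 29 of Mbnl2.

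For Mbnl1 the control peaks were spread from 60305259 to 60432459 on the plus strand of chromosome 3, 127.2 kb in length, with 2.07 to 71.5 kb between neighbours. The strongest, of 19 reads each, were at 60305259 to 60305289 and at 60407666 to 60407689, and 1 of 16 reads closed the stretch at 60432405 to 60432459. No anti-PanQk peak of any gene ID lay inside it. The nearest ones were 1403 kb upstream and 737 kb downstream, and the 6 peaks of Mbnl1 were the only control peaks in that interval. The length of that interval, 2.27 Mb, was not unusual. Of stretches without an anti-PanQk peak, 626 spanned 1 Mb or more and 171 were as long as this one or longer. As many control peaks were found in 6 stretches. A gene with 6 or more control peaks and no anti-PanQk peak was rare. Of the 180 IDs with 6 or more control peaks, 4 (2.22%) had no anti-PanQk peak, and the median of the 180 was 13 anti-PanQk peaks (quartiles 6 and 24.3). The other three were ENSMUSG00000029661, ENSMUSG00000092329 and ENSMUSG00000092341, with 8, 19 and 35 control peaks. Among all IDs of the control list 24.4% had no anti-PanQk peak. An absence from the list shows that no peak was listed, not that the library held no read there. Whether peaks were called at all under these 4 IDs in the anti-PanQk library, or whether entries are missing from the list used here, cannot be told from the lists. The contrast between Mbnl1 and Mbnl2 is therefore one of listed peaks only.

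Rbfox2 had nearly as many peaks as Mbnl2 in another arrangement. Its peaks lay on the minus strand of chromosome 15 between 76911609 and 77111710, and its 14 anti-PanQk peaks were spread over 200 kb with a median of 6.89 kb between neighbours. Only 3 lay within 5 kb of the downstream end, each with 3 reads. The strongest pair was internal, 81.6 and 81.9 kb from the downstream end. One peak, at 76993195 to 76993240, held 11 reads with a deposited p of 1.02e-09. The other, at 76993413 to 76993503, held 9 reads with a deposited p of 1.54e-07, with 172 nt between them. Together they gave 20 of the 59 reads of the gene (33.9%). The nearest control peak was 60.1 kb away.

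In transcript order the 14 peaks of Rbfox2 had 3, 3, 3, 3, 9, 11, 3, 5, 3, 4, 3, 3, 3 and 3 reads, so that 10 stood at the lowest number listed and no peak outside the pair passed 5. Its strongest control peak, of 13 reads at 76911609 to 76911638, was the downstream-most entry of either list, and an anti-PanQk peak of 3 reads lay 63 nt from it. The other control peaks had 3 reads each and lay at least 8.21 kb from an anti-PanQk peak. One of them, at 77072898 to 77072925, was also listed under ENSMUSG00000089242 on the same strand, so its reads cannot be assigned to Rbfox2 alone.

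**Figure D4:**
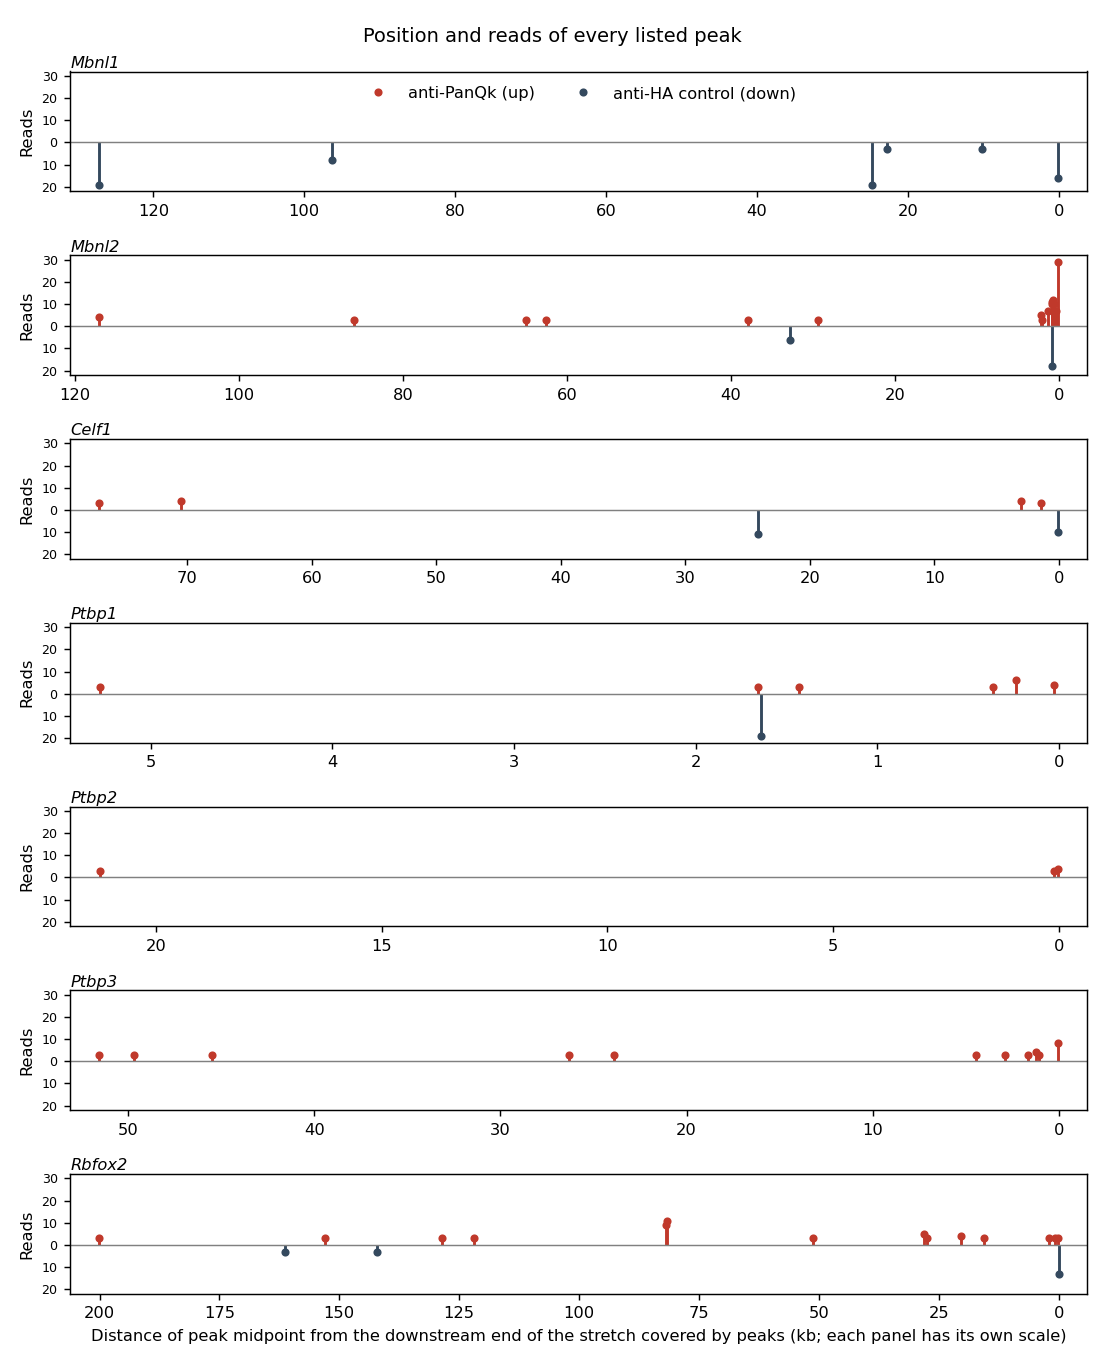
Every listed peak of the 7 genes, with the distance of its midpoint from the last listed position of the gene on the x axes (kb, transcription runs left to right, each panel with its own scale) and reads on the y axes, upwards for anti-PanQk and downwards for the control. Mbnl2 is tallest at its downstream end, with 29 reads, and Rbfox2 in the interior, with 11.

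The 3 polypyrimidine tract-binding genes differed in number of peaks and in control signal. Ptbp3 lay on the minus strand of chromosome 4, from 59485093 to 59536666. It had 11 anti-PanQk peaks, and the control list held none for it. The nearest control peak on its strand was 638 kb away. In the last 4.45 kb lay 6 of the 11, with 8, 3, 4, 3, 3 and 3 reads counted from the downstream end, and the other 5 lay farther upstream with 3 reads each. The strongest, of 8 reads, was the downstream-most at 59485093 to 59485135, with a deposited p of 1.29e-06, and a single further peak had more than 3 reads. Of all gene IDs in the anti-PanQk list, 52.4% likewise had no control peak.

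Ptbp1, whose product represses the neuronal and muscle exons of many genes and a Ptbp2 exon among them, was compact. Its peaks fell within 5.29 kb on the plus strand of chromosome 10, from 79321743 to 79327027. In transcript order the 6 anti-PanQk peaks had 3, 3, 3, 3, 6 and 4 reads, and the strongest was at 79326758 to 79326830, with a deposited p of 9.94e-05. The single control peak, at 79325376 to 79325398, held 19 reads, more than any anti-PanQk peak of the gene. Control peaks were stronger throughout, with a median of 15 reads (quartiles 8 and 19) against 4 over all anti-PanQk peaks. An anti-PanQk peak of 3 reads at 79325369 to 79325374 stood 1 nt from it and counts as control-free only because the 2 do not touch. The last 3 peaks, of 3, 6 and 4 reads, were more than 1.2 kb from the control peak.

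Ptbp2 had the fewest anti-PanQk peaks of the genes with any. They held 4, 3 and 3 reads, on the minus strand of chromosome 3 between 119422045 and 119443307. The strongest was at 119422045 to 119422070, with a deposited p of 0.00383. The first 2 stood 60 nt apart at the downstream end, and the third was 21.1 kb upstream. No control peak was listed, and the nearest on that strand was more than 1509 kb away.

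Celf1 had 4 anti-PanQk peaks of 3, 4, 4 and 3 reads in transcript order on the plus strand of chromosome 2, within the stretch from 90781945 to 90859046. The first pair lay at the upstream end and the second near the downstream end, with 67.4 kb between the pairs. Those with 4 reads were at 90788566 to 90788574 and at 90856001 to 90856043, with deposited p-values of 0.00372 and 0.00393. The control peaks, of 11 reads at 90834888 to 90834899 and 10 reads at 90859016 to 90859046, were both stronger. Both were below the median of 15 reads over all control peaks. The nearest approach of the lists was 1389 nt.

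Downstream position was common but not shared by all genes. In the last 10% of each stretch lay 26 of the 53 anti-PanQk peaks (49.1%), and 44.7% of those outside Mbnl2. Over all anti-PanQk peaks placed in the same way it was 39.7%, but the 2 shares are not alike. The stretch is set by the peaks themselves, so the peak of an ID with a single listed peak can never fall in its last 10%. The downstream-most peak of a long stretch falls there by definition. By gene the share was 60.0% in Mbnl2 (9 of 15), 54.5% in Ptbp3 (6 of 11) and 28.6% in Rbfox2 (4 of 14). Over 905 IDs with at least 5 anti-PanQk peaks and a stretch of at least 10 kb, the median share was 46.2% (quartiles 25 and 66.7), so all 3 genes lay within the middle range of such IDs. The stretch runs from the first to the last listed peak and is not the annotated gene. Exons, introns and UTRs of the mm9 build were not assigned here.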

How the data were processed

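The 2 peak lists analysed hold 1 library each, assigned by the library name in the track line. Peaks were called by the authors with CLIPper on mm9, per the file headers, where the unexplained tags rptfilt, tophat and premRNA also stand. The submitters' processing notes name Bowtie2, TopHat and mm9. No version, and no handling of multiply mapping reads, is given in the sources used here. Each peak carries a deposited p-value (at most 0.0210). The last part of its deposited name was taken as its number of reads, and the middle part as a running number within the gene. Overlap and distance were computed per strand with scipy 1.17.1, numpy 2.4.6 and pandas 2.3.3 under Python 3.11.15, and the code was checked on simulated peaks. Entries were counted as listed. Genes and lists were chosen with earlier results of these data known. All 7 genes are named, with the strongest anti-PanQk, control-free and control peak of each, and the 3 gene IDs nearest to the gene with most peaks. Lists of 19 other splicing regulators and 16 cell type markers could not be matched to gene IDs, since the reference table pairs 0 rows with an Ensembl ID, so the cell type was not checked here. No mm9 genome was used here, so neither peak sequences nor motifs are given.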

Additional observations from a re-analysis of the deposited data

How the results depend on the processing

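No paired analysis was possible because each list is a single library, and for the same reason no library could be left out. The 53 anti-PanQk peaks, 52 of them control-free, became 7 and 6 with p at most 1e-06 in both lists, 13 and 12 with at least 5 reads, and 11 and 10 with lists of equal length, made by keeping the strongest anti-PanQk peaks, in each case because fewer peaks were admitted. The control-free share of 98.1% became 85.7% with p at most 1e-06 and 100% when control peaks of 10 to 26 reads were left out. The share over all anti-PanQk peaks was not computed under these settings, so these counts and shares have no background. In the unfiltered lists that share fell to 52.1% for peaks of 10 or more reads. The 14 control peaks became 8 with p at most 1e-06 (57.1%, against 72.8% of all control peaks). They became 6 without the class of 10 to 26 reads, which held 57.1% of them and 63.2% of all control peaks. The median of 3 reads became 11, 9 and 10 under the stricter p-value, the 5-read minimum and equal list lengths, and the 26 peaks in the last 10% of a stretch became 5, 10 and 9. Ignoring strand, merging within 50 nt, asking for 50% of the shorter peak and allowing 100 nt of distance left each of the counts over the 7 genes within 1.5 times its value. Celf1 and Ptbp2 had no anti-PanQk peak left under the stricter p-value, the 5-read minimum or equal list lengths, while Mbnl2 had 5, 8 and 7, Rbfox2 had 2, 3 and 2, and Ptbp1 and Ptbp3 had 0, 1 and 1 each. The 6 control peaks of Mbnl1 became 3 with p at most 1e-06 and 3 without those of 10 to 26 reads. The position counts and the control peaks of each gene were added to the alternatives after seeing the data. Peaks of 3 reads, the smallest the lists hold, limit what can be said of Celf1, Ptbp1, Ptbp2 and Ptbp3. The same holds for the peak count of Rbfox2, where 10 of the 14 peaks had 3 reads.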

Other observations

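Peak names carry a running number per gene, and its gaps show numbered clusters that were not listed. The highest anti-PanQk numbers of the 6 genes with peaks add up to 101, of which 53 were listed (52.5%), against 61.5% over all gene IDs. These shares and those per gene are upper limits, since clusters numbered after the last listed one are not seen. Rbfox2 reached number 35 with 14 listed (40.0%), Ptbp3 number 20 with 11 (55.0%) and Mbnl2 number 26 with 15 (57.7%). Mbnl1 reached number 10 in the control with 6 listed.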
